A study of Mus musculus with 8 samples.

Results

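The genes described here encode the proteasome of the mouse: the subunits of its core particle, of its regulatory particle, its activators and the chaperones of its base. They were taken from the array annotation as every symbol that starts with Psma, Psmb, Psmc, Psmd or Psme followed by a digit, and 3 genes that the rule leaves out are not reported here. The rule found 40 genes of 12393 with a probe set of their own, and each was read from the probe set with the highest mean over the 8 arrays. Of these, 38 belong to the complex or its assembly. The other 2, Psmc3ip and Psme3ip1, encode proteins named for their interaction with a proteasome protein and were kept because the rule takes them by name. Psme2, the partner of Psme1, had no probe set that named it alone, and Psmb11 had none.

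The samples were CD4 T cells, the helper class of T lymphocytes, sorted by flow cytometry from spleens. All mice were female and 8 to 12 weeks old. The 4 groups were AhR-deficient mice (KO, backcrossed to C57BL/6) given TCDD, KO given DMSO, wild-type C57BL/6 mice (WT) given TCDD, and WT given DMSO. TCDD is a dioxin that binds the aryl hydrocarbon receptor, here given at 10 µg/kg by intraperitoneal injection in corn oil 24 h before death, and the other mice received the DMSO solvent in corn oil by the same route. Each group had 2 arrays, each with RNA pooled from 4 animals, so 4 KO arrays stand against 4 WT arrays; the labels name no promoter or cell type to which the knockout is limited.

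The proteasome degrades proteins that carry ubiquitin chains. Its 20S core is a barrel of outer alpha rings, which gate the entrance, and inner beta rings, which hold the proteolytic sites; its 19S cap binds the chain, removes it, unfolds the substrate with a ring of ATPases and feeds it into the core. Other caps, the PA28 and PA200 activators, open the core without ubiquitin, and in T cells the complex is known for clearing cell-cycle and signalling proteins and for supplying peptides to MHC class I molecules. Aryl hydrocarbon receptor bound to ligand acts as a transcription factor.

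All values are log2 levels after RMA, a method that corrects background, gives the arrays a common distribution and joins the probes of a set into 1 value. The array medians over all probe sets lay between 6.08 and 6.15. Of the 40 genes, 38 had a mean at or above 6.13, the median of all probe set means, and the 2 dimmer ones were Psma8 (mean 4.83), which encodes a testis form of an alpha subunit, and Psmd10 (mean 5.35), which encodes the base chaperone gankyrin. T cell markers, Cd4 among them, were present, with 0 of the 7 measured called between genotypes. Their lowest adjusted p values in limma were 0.0644 for Cd5 (difference 0.90) and 0.0794 for Il7r (-0.64). All 7 lay above the median of 6.13. Among the other lists, 3 of 16 myeloid markers, 3 of 10 B cell markers and 3 of 10 markers of NK and CD8 T cells lay under it, Cd8a among them (5.62 in KO and 5.77 in WT). Of the 16 myeloid and dendritic markers, 10 were called higher in KO, and the log2 of their summed level ran from 12.5 to 13.4 in KO and from 10.9 to 11.1 in WT. Of the B cell and plasma cell markers 2 were called higher in KO, of those of NK and CD8 T cells likewise 2, and of 4 erythroid markers 0. In such bulk samples, fewer cells of a type and less RNA per cell cannot be told apart. The targeted gene gave no check of the labels, since where its probe sets lie relative to the deleted part was not given; 1 of them averaged 6.74 ± 0.26 in KO against 6.21 ± 0.10 in WT (SD, n = 4 each; adjusted p = 0.0658 in limma) and the other 6.52 ± 0.23 in KO against 6.48 ± 0.14 in WT. The array titled WT TCDD replicate 1 is described in its free text as knockout material, but its title, source and strain are those of WT, and it was read as WT.

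The genotype comparison asked which genes differ in T cells that lack the receptor. Among the 40 proteasome genes, 1 rose in KO and 0 fell. That gene was Psmd8, a lid subunit whose yeast counterpart completes the assembly of the lid, with a level 1.93 times that of WT. The remaining 39 genes did not pass, and they lay on both sides of 0 within most parts of the complex. The call is an adjusted p under 0.05 in limma, with Benjamini-Hochberg (BH) adjustment over all 22626 probe sets tested, of which 2.79% were called. With 1 probe set per gene, 3.24% of 12393 genes were called, and among the 7405 genes at or above the median level, where 38 of the 40 lie, 5.05% were. The 2.5% called among the proteasome genes lay near or under these shares.

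Counts that use no adjusted p lay above or near the shares over all genes, with no test over the set. The unadjusted p was under 0.05 for 12 of the 40 genes, 7 higher and 5 lower in KO, against 22.2% of all genes. The KO and WT arrays did not overlap in 7 genes, with KO above in Psmd8, Psmd4 and Psmc3 and KO below in Psma3, Psmd14, Psmc6 and Psmd1; over all genes this share was 13%. In 5 genes the genotype difference was larger than each gap between replicate arrays of a group, against 11.8% of all genes. Over the 40 genes the log2 difference KO minus WT was above 0 in 19 and below 0 in 21, with a median of -0.06 and a range from -1.24 to 0.95; the median over all genes was 0.005.

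**Figure D1:**
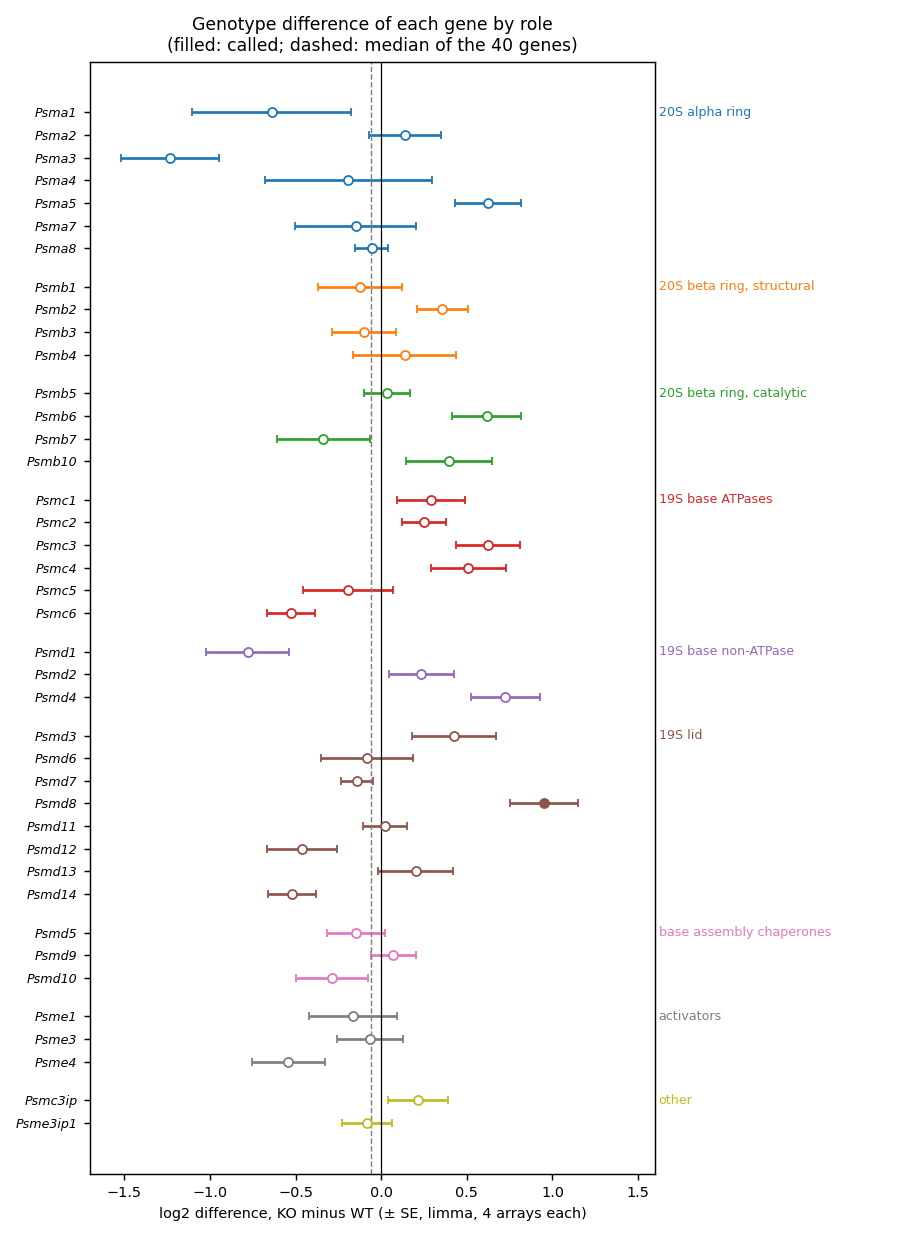
Log2 difference between 4 KO and 4 WT arrays for each of the 40 genes, grouped by place in the complex, with bars for the standard error of the limma fit. The filled point is Psmd8 at 0.95, the one gene called, the dashed line is the median of -0.06, and most groups hold points on both sides of 0.

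The lid of the 19S cap carries the enzyme that cuts the ubiquitin chain from the substrate, and Psmd8 is one of its structural subunits. Psmd8 read 9.22 and 9.50 in KO TCDD and 9.02 and 9.11 in KO DMSO, against 7.67 and 8.36 in WT TCDD and 8.53 and 8.49 in WT DMSO. Every KO array lay above every WT array, with the lowest value on WT TCDD replicate 1. KO averaged 9.21 ± 0.21 and WT 8.26 ± 0.40 (SD, n = 4 each), which differ by 0.95 log2 units (SE 0.20; limma, BH adjusted p = 0.0453). An exact permutation test over the 70 arrangements of the arrays gave a two-sided p of 0.0286, the smallest it can give. This p restates that the groups do not overlap, which held for 13% of all genes. The call held without WT TCDD replicate 1 (difference 0.75, adjusted p = 0.0363) and ended when any of the other 7 arrays was left out. Those 7 fits called 0.541% to 3.01% of all genes. Over those left-out arrays the difference kept its sign, and the adjusted p was at most 0.133. It was 1.35 on the TCDD arrays alone and 0.56 on the DMSO arrays alone, neither of which passed, and the call also ended with median centring (adjusted p = 0.0515) and in the model of 4 group means (adjusted p = 0.0681). The myeloid markers given above moved with genotype as Psmd8 did, and their part in this difference was not tested.

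Psmd14 encodes the lid's deubiquitinase. Its levels were 9.23 and 9.48 in KO TCDD and 9.76 and 9.16 in KO DMSO, against 9.83 and 9.93 in WT TCDD and 9.83 and 10.12 in WT DMSO. All KO arrays were under all WT arrays, with KO DMSO replicate 1 closest to them. KO averaged 9.41 ± 0.27 and WT 9.93 ± 0.14 (SD, n = 4 each), a difference of -0.52 that did not pass (limma, BH adjusted p = 0.0846) but passed without KO DMSO replicate 1 (-0.64, adjusted p = 0.0403). Of the 8 lid genes 4 lay above 0 and 4 below, and the median difference was -0.03. Between Psmd8 and Psmd14 lay Psmd3 (0.43) and Psmd13 (0.20) on the higher side, Psmd11 (0.02) and Psmd6 (-0.08) near 0, and Psmd7 (-0.14), the inactive partner of the deubiquitinase, and Psmd12 (-0.46) on the lower side.

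The base of the cap holds the large scaffold subunits and the ubiquitin receptor Psmd4, which reads the chain through ubiquitin-interacting motifs. Psmd4 was at 10.40 and 10.15 in KO TCDD and 10.07 and 9.56 in KO DMSO, against 8.89 and 9.32 in WT TCDD and 9.55 and 9.52 in WT DMSO. The KO arrays were all higher, but KO DMSO replicate 2 exceeded WT DMSO replicate 1 by little. The averages of 10.05 ± 0.35 in KO against 9.32 ± 0.30 in WT (SD, n = 4 each) differed by 0.73, which did not pass (limma, BH adjusted p = 0.0925). Psmd4 passed in 2 of 20 alternatives, with the quantile normalization repeated (0.78, limma BH adjusted p = 0.0295) and with array weights (0.78, adjusted p = 0.0263).

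Psmd1, the largest scaffold subunit, lay on the other side. It read 6.56 and 6.72 in KO TCDD and 6.94 and 6.79 in KO DMSO, against 7.19 and 7.94 in WT TCDD and 6.96 and 8.04 in WT DMSO. The groups nearly touched, with the highest KO array just under the lowest WT array, and the WT arrays numbered 2 stood well above those numbered 1. The difference was -0.78 (SE 0.24; limma, BH adjusted p = 0.116). Psmd2, the other scaffold of the base, differed by 0.24 with overlapping groups.

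The 6 ATPases form 1 ring in which each subunit occurs once. Psmc3, whose tail helps to open the gate of the core, read 9.59 and 9.33 in KO TCDD and 9.32 and 9.02 in KO DMSO, against 8.25 and 8.56 in WT TCDD and 9.01 and 8.94 in WT DMSO. The groups did not overlap, although KO DMSO replicate 2 and WT DMSO replicate 1 were almost equal and the difference was 1.06 on the TCDD arrays alone and 0.20 on the DMSO arrays alone. Over all arrays it was 0.63 (SE 0.19), short of a call (limma, BH adjusted p = 0.106). Psmc6 in the same ring lay lower in all KO arrays, at 8.08 and 8.25 in KO TCDD and 8.26 and 7.79 in KO DMSO, against 8.39 and 8.83 in WT TCDD and 8.48 and 8.79 in WT DMSO. Its difference was -0.53 (limma, BH adjusted p = 0.0852); it is described by array because its groups do not overlap, a choice made after its values were seen. Of the others, Psmc4, Psmc1 and Psmc2 lay above 0 (0.51, 0.29 and 0.25) and Psmc5 below (-0.19). In this ring 4 genes were thus above 0 and 2 below, with a median of 0.27, and 0 of 6 were called.

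In the alpha ring of the core, Psma3 had the lowest difference of the 40 genes. It read 9.86 and 9.91 in KO TCDD and 10.24 and 9.94 in KO DMSO, against 10.62 and 12.04 in WT TCDD and 10.78 and 11.45 in WT DMSO. The KO arrays lay close together and below all WT arrays, while the WT arrays spanned 1.42 log2 units, with those numbered 2 highest. KO averaged 9.99 ± 0.17 and WT 11.22 ± 0.65 (SD, n = 4 each), a difference of -1.24 (SE 0.29) that missed the threshold (limma, BH adjusted p = 0.0585). Psma3 passed in 7 of 20 alternatives (limma, BH adjusted p from 0.0192 to 0.0459). These were the replicate block (adjusted p = 0.0459), the repeated quantile normalization, the array with dim probe sets left out, array weights, the mean of probe sets, the actin covariate, and the fit without WT TCDD replicate 1 (-1.44, adjusted p = 0.0429). Psma3 has 1 probe set, so the mean of probe sets and the fit without dim probe sets used the same values of it (-1.24). Without both WT arrays numbered 2 the difference in Psma3 was -0.71 and did not pass. Psma3 and Psmc1, which differed by 0.29, lie on chromosome 12, as Ahr does, and a part of this position was not tested.

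Psma1, Psma4 and Psma7 had the widest WT scatter of the 40 genes, with SDs of 1.04, 1.07 and 0.83 over the 4 WT arrays, against 0.36, 0.46 and 0.12 over the KO arrays. Psma1 was at 7.03 and 7.62 in KO TCDD and 7.87 and 7.37 in KO DMSO, against 6.87 and 9.09 in WT TCDD and 7.64 and 8.85 in WT DMSO. Both the lowest and the highest value were WT TCDD arrays, so the groups overlapped, and the difference of -0.64 (SE 0.46) did not pass (limma, BH adjusted p = 0.493). Without the WT arrays numbered 2 the difference in Psma1 was 0.22. Psma5 went the other way, at 10.56 and 10.38 in KO TCDD and 10.47 and 9.90 in KO DMSO, against 9.46 and 9.97 in WT TCDD and 9.38 and 10.01 in WT DMSO. It overlapped through KO DMSO replicate 2 and differed by 0.62 (limma, BH adjusted p = 0.118). It too was picked once its values had been seen. A second bright probe set of Psma5 differed by only 0.11 (limma, BH adjusted p = 0.836), and a dim one by 0.05. Psma2, Psma4, Psma7 and Psma8 differed by 0.14, -0.19, -0.15 and -0.06, each with overlapping groups.

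The proteolytic sites sit in 3 beta subunits of the standard core. Psmb5 provides the chymotrypsin-like site, Psmb6 the caspase-like site and Psmb7 the trypsin-like site, and Psmb10 takes the place of Psmb7 in the immunoproteasome, the form found in lymphoid cells and induced by interferon. Psmb6 read 10.33 and 9.98 in KO TCDD and 9.84 and 9.28 in KO DMSO, against 9.15 and 9.23 in WT TCDD and 9.46 and 9.12 in WT DMSO. KO DMSO replicate 2 lay inside the WT range and the other KO arrays above it, with a difference of 0.62 that did not pass (limma, BH adjusted p = 0.132). Without KO DMSO replicate 2 it was 0.81 and passed (adjusted p = 0.0414), as it did with array weights (adjusted p = 0.0385).

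Psmb10 was at 9.99 and 9.42 in KO TCDD and 9.48 and 8.74 in KO DMSO, against 8.59 and 9.23 in WT TCDD and 9.11 and 9.11 in WT DMSO. Again KO DMSO replicate 2 was the low KO array, and the difference of 0.40 did not pass (limma, BH adjusted p = 0.426). It was 0.62 without that array and 0.20 without KO TCDD replicate 1, the high one. Psmb7 was at 6.86 and 7.06 in KO TCDD and 7.04 and 7.07 in KO DMSO, against 6.63 and 8.14 in WT TCDD and 7.43 and 7.18 in WT DMSO. The KO arrays of Psmb7 lay within the span of the WT TCDD pair, and its difference of -0.34 did not pass (limma, BH adjusted p = 0.541). The value moved with that pair, to -0.07 when WT TCDD replicate 2 was left out and to -0.58 when WT TCDD replicate 1 was. Psmb5 was at 9.01 and 9.08 in KO TCDD and 8.96 and 8.73 in KO DMSO, against 8.62 and 9.14 in WT TCDD and 8.80 and 9.08 in WT DMSO. It differed by 0.04 (SE 0.13; limma, BH adjusted p = 0.918), and the KO arrays lay inside the WT range. The structural beta genes Psmb1, Psmb2, Psmb3 and Psmb4 differed by -0.13, 0.36, -0.10 and 0.14, all with overlapping groups.

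The 3 activator genes measured all lay below 0 and overlapped between genotypes. Psme1, a subunit of the interferon-induced PA28 cap, read 10.33 and 10.01 in KO TCDD and 10.46 and 9.37 in KO DMSO, against 9.90 and 10.59 in WT TCDD and 9.91 and 10.43 in WT DMSO. The lowest of the 8 values was KO DMSO replicate 2, and the difference of -0.17 did not pass (limma, BH adjusted p = 0.778). Psme4, which encodes PA200, an activator known from chromatin and sperm, was at 7.67 and 7.88 in KO TCDD and 8.22 and 7.48 in KO DMSO, against 8.29 and 8.52 in WT TCDD and 7.86 and 8.75 in WT DMSO. Its difference was -0.54 (limma, BH adjusted p = 0.196).

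Psme3, the nuclear relative of Psme1, was at 6.95 and 6.84 in KO TCDD and 6.84 and 7.60 in KO DMSO, against 6.96 and 7.41 in WT TCDD and 6.90 and 7.22 in WT DMSO. The one high KO array was KO DMSO replicate 2, where most of the other genes were low, and the difference was -0.07 (limma, BH adjusted p = 0.889). The base chaperone genes Psmd5, Psmd9 and Psmd10 differed by -0.15, 0.07 and -0.29, and the interactor genes Psmc3ip and Psme3ip1 by 0.22 and -0.08; none of these 5 passed.

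**Figure D2:**
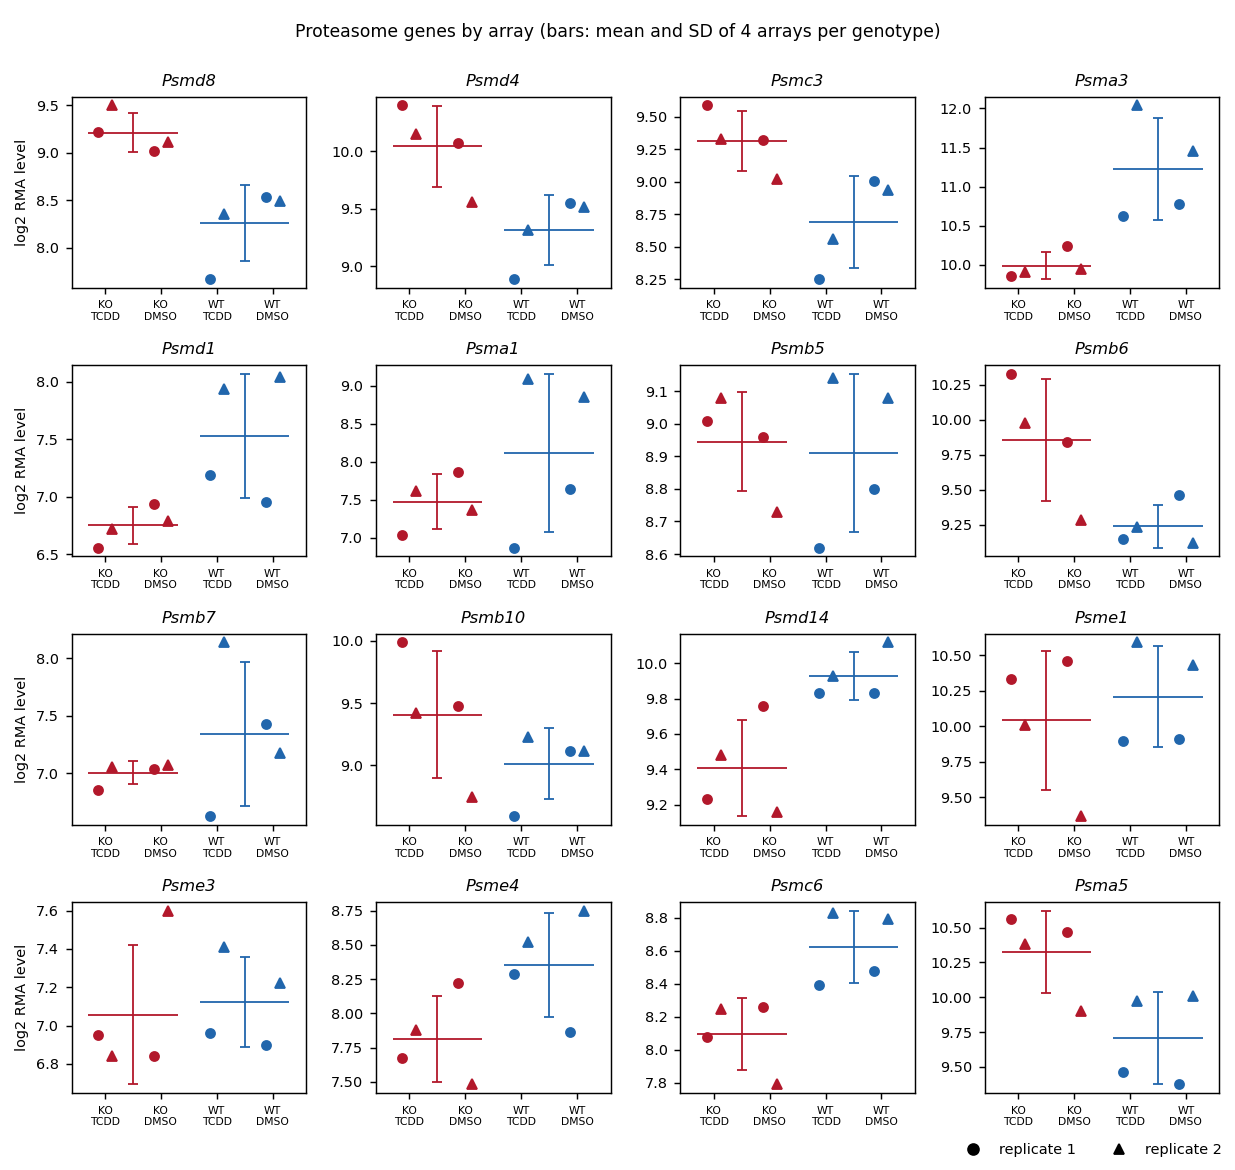
Log2 RMA level of 16 proteasome genes on each of the 8 arrays, with circles for replicate 1, triangles for replicate 2, and a line and bar for the mean and SD of the 4 arrays of a genotype. KO and WT arrays do not overlap for Psmd8, Psmd4, Psmc3, Psma3, Psmd1, Psmd14 and Psmc6, and the panels of Psma1 and Psmb7 show a WT TCDD pair that spans the KO arrays.

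The promoters of 4 of the genes without overlap are printed to show the sequence at their start: Psmd8 and Psmd4, higher in KO, and Psma3 and Psmd14, lower, a choice made with their values known. They are RefSeq windows of assembly GRCm38.p6, each of 300 bases (250 before the start and 50 after), written 5′ to 3′ on the gene's strand, with a motif match in capitals. The motifs searched on both strands were GCGTG (the core to which the aryl hydrocarbon receptor binds with its partner), CCAAT (the box bound by NF-Y), TGACNNNGC (the core of antioxidant response elements) and GAAANNGAAA (a core of interferon response elements).
Psmd8, chr7:29180624-29180923, minus strand: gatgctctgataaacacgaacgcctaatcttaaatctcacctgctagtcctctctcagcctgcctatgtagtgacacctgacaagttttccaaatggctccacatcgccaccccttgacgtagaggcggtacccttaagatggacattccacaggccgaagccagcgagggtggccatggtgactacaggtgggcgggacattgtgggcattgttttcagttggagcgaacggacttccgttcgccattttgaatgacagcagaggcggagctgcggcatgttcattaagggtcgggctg
Psmd4, chr3:95042565-95042864, minus strand: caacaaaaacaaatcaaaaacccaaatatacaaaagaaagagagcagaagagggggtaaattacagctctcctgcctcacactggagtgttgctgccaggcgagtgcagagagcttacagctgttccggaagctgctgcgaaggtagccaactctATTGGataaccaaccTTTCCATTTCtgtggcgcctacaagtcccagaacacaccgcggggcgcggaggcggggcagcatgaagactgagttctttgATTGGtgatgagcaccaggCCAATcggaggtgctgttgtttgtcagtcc
Psma3, chr12:70974373-70974672, plus strand: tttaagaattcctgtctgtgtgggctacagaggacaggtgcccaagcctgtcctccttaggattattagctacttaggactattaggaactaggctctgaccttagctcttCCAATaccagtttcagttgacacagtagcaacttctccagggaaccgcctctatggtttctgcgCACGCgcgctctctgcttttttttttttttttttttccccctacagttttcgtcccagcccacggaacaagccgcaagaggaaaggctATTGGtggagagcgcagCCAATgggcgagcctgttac
Psmd14, chr2:61711444-61711743, plus strand: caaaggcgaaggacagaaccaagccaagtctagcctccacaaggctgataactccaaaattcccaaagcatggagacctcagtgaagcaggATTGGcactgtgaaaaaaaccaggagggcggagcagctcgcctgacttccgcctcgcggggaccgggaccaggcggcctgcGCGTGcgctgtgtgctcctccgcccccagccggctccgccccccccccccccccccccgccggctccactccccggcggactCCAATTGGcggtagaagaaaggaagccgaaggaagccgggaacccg

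Psmd8, the gene called, held 0 matches to any of the 4 motifs in its window. Psmd4 held 3 matches to CCAAT and 1 to GAAANNGAAA, while Psma3 and Psmd14 held 3 to CCAAT and 1 to GCGTG each; in Psmd14 a pair of CCAAT matches on opposite strands share bases. RefSeq windows were matched by gene identifier for 33 of the 40 genes, with 35 windows. GCGTG was found in 17 of these windows (48.6%) against 32.4% of all 32851 windows, CCAAT in 13 (37.1%) against 37.4%, TGACNNNGC in 6 (17.1%) against 12.4%, and GAAANNGAAA in 4 (11.4%) against 3.44%. The 4 windows with GAAANNGAAA were those of Psmd4, Psmb3, Psmd9 and Psme1. A match is a string of letters and not a binding site, and the absence of one says only that these letters are not in the window.

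Within each genotype, TCDD was set against DMSO to ask which genes respond to the ligand and whether the response needs the receptor. In KO T cells 0 of the 40 genes were called, and likewise 0 in WT and 0 for the difference between the responses (limma, BH adjusted p 0.997 to 1). Over all 22626 probe sets the share called was 0% in each of these 3 comparisons. At an unadjusted p under 0.05 there were 2 proteasome genes in KO (1.94% of all genes), there was 1 in WT (2.99% of all genes) and there were 4 for the difference (2.99% of all genes).

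In KO, Psmb6 and Psmb3 had the smallest unadjusted p. Psmb3, a structural subunit of the beta ring, read 10.69 and 10.46 in KO TCDD against 10.15 and 9.90 in KO DMSO, and 10.49 and 10.02 in WT TCDD against 10.50 and 10.59 in WT DMSO. The KO pairs were apart by 0.55 (SE 0.19) and the WT pairs differed by -0.29, mainly through WT TCDD replicate 2. The difference between the responses, KO minus WT, was 0.84 (SE 0.27; limma, BH adjusted p = 0.998). Psmb6, described by array above, differed by 0.60 (SE 0.23) in KO and by -0.10 in WT. The KO value became 0.32 when KO DMSO replicate 2 was left out and 0.88 when KO DMSO replicate 1 was.

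In WT, Psmc3 and Psmd8 had the smallest unadjusted p. Both WT TCDD arrays of Psmc3 lay under both WT DMSO arrays, whereas both KO TCDD arrays lay above the KO DMSO arrays. The log2 difference TCDD minus DMSO was 0.29 in KO and -0.57 in WT (SE 0.17 each) for Psmc3. For Psmd8, with the same order of arrays, it was 0.30 in KO and -0.50 in WT (SE 0.23 each). The WT value became -0.15 when WT TCDD replicate 1 was left out and -0.84 when WT TCDD replicate 2 was. The difference between the responses was 0.86 (SE 0.24) for Psmc3 and 0.79 (SE 0.32) for Psmd8, and neither passed (limma, BH adjusted p = 0.998).

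Across the complex, the TCDD difference in KO was above 0 in 25 genes and below 0 in 15, with a median of 0.15 and a range from -0.34 to 0.60. In WT it was above 0 in 12, below 0 in 27 and exactly 0 in Psmc2, with a median of -0.10 and a range from -0.61 to 0.22. The median over all genes was 0.03 in both genotypes. The 4 structural beta genes were all above 0 in KO (0.04 to 0.55) and all below 0 in WT (-0.55 to -0.11), whereas the alpha genes were below 0 in 5 of 7 in either genotype. None of these single differences passed, and the counts describe arrays that are shared by all the genes.

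**Figure D3:**
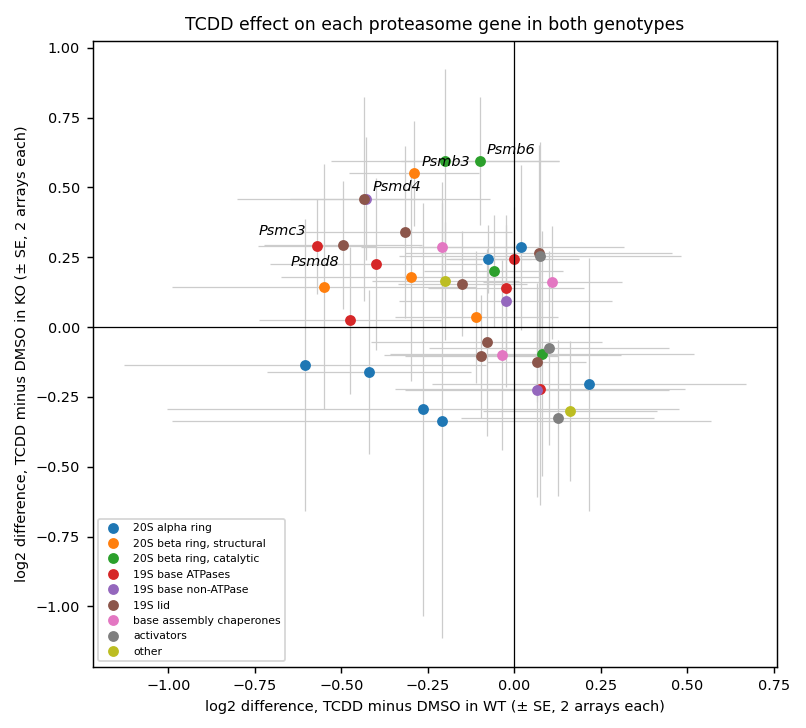
Log2 difference TCDD minus DMSO for each of the 40 genes in KO (vertical axis) and WT (horizontal axis), with grey bars for the standard errors and colour for the place in the complex. Psmc3 and Psmd8 lie at 0.29 and 0.30 in KO and at -0.57 and -0.50 in WT, and no point passed the test on either axis.

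Replicate arrays differed in the proteasome genes by more, at the median, than over the brighter genes of the array, which is given as a description with no test. The median gap between replicates over the 40 genes was 0.20 in KO TCDD, 0.49 in KO DMSO, 0.56 in WT TCDD and 0.29 in WT DMSO. Over the 7405 genes at or above the median level it was 0.14 in KO TCDD, 0.30 in KO DMSO, 0.26 in WT TCDD and 0.22 in WT DMSO. The widest gap was that of Psma4, an alpha subunit, in WT TCDD, at 6.53 and 8.90. Over the 4 arrays of a genotype the median SD of the 40 genes was 0.26 in KO and 0.35 in WT, against 0.20 and 0.20 for the bright genes. In the alpha ring it was 0.26 in KO and 0.65 in WT, and 6 of its 7 genes had the larger SD in WT, against 24 of the 40 genes and 55.9% of the bright genes.

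The deviations ran together across genes. KO DMSO replicate 1 was above replicate 2 in 33 of the 40 genes (82.5%), against 65.8% of the bright genes. In WT, replicate 2 was above replicate 1 in both treatments in 22 of the 40 (55%), against 30.6% of the bright genes. Relative to each gene's mean over the 8 arrays, the median of the 40 genes was lowest on WT TCDD replicate 1 (-0.25) and KO DMSO replicate 2 (-0.23) and highest on WT DMSO replicate 2 (0.16). For the bright genes this median was 0.01 on WT TCDD replicate 1, -0.11 on KO DMSO replicate 2 and -0.03 on WT DMSO replicate 2. In the alpha ring the median was -0.62 on WT TCDD replicate 1, 0.61 on WT TCDD replicate 2 and 0.73 on WT DMSO replicate 2. On WT TCDD replicates 1 and 2 the medians were closer together for the ATPases (-0.34 and -0.29) and the lid genes (0.02 and -0.01). By gene, Psmc1, Psmc3, Psmc5 and Psmc6 were nevertheless higher on WT TCDD replicate 2, with Psmc5 at 6.12 and 7.57. Psmc2 and Psmc4 were lower there.

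The actin control, the log2 difference between its 3′ and 5′ probe sets, was at its extremes on 2 of these arrays. It was 3.73 and 3.82 in KO TCDD, 3.48 and 3.60 in KO DMSO, 4.56 and 3.30 in WT TCDD and 3.70 and 2.90 in WT DMSO, so that WT TCDD replicate 1 was highest, where the genes were lowest, and WT DMSO replicate 2 lowest, where they were highest. KO DMSO replicate 2, where the genes were also low, had 3.60, between the other arrays. By genotype it averaged 3.66 ± 0.15 in KO against 3.62 ± 0.71 in WT (SD, n = 4 each, with an exact permutation p of 0.914, two-sided). With it as a covariate 4 genes were called, Psmd8 higher and Psma3, Psmc6 and Psmd1 lower in KO, against 9.13% of all genes in that fit.

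**Figure D4:**
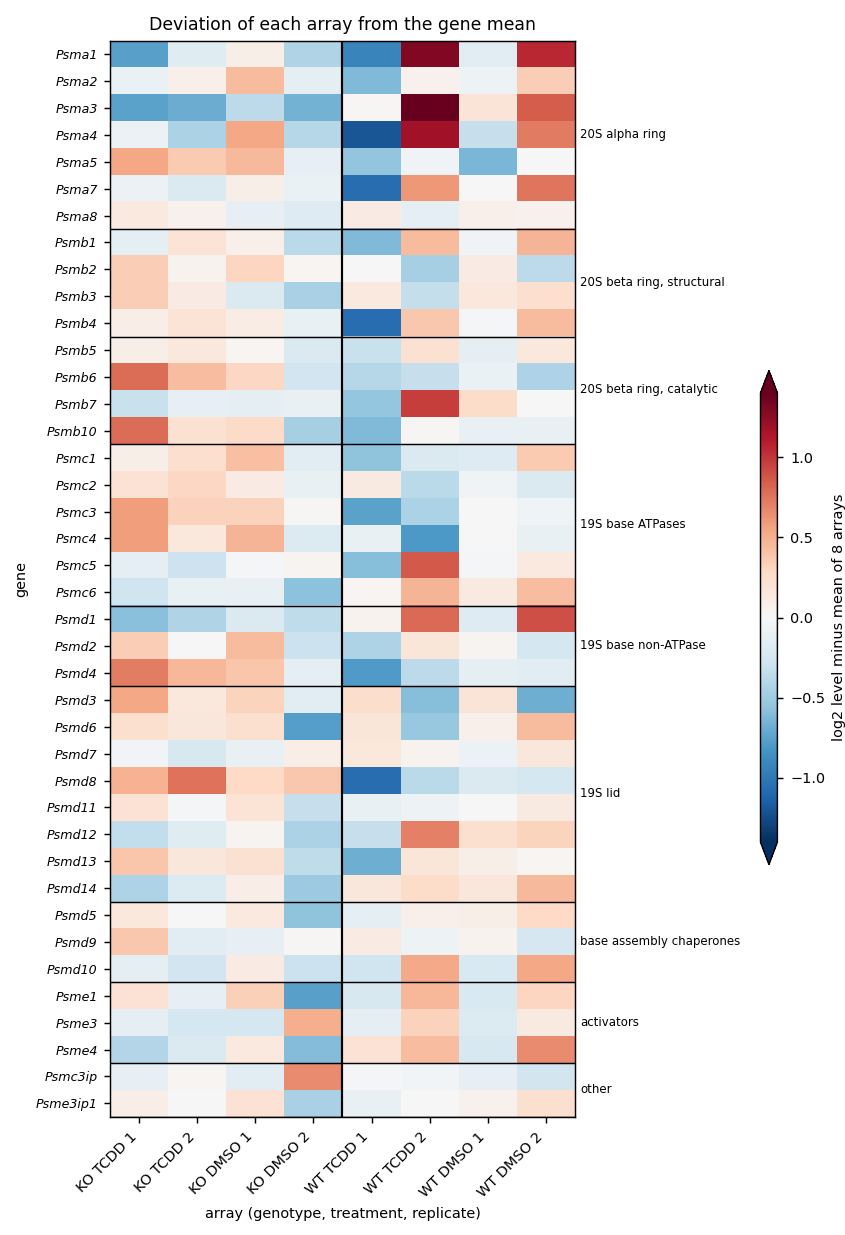
Log2 level of each of the 40 genes on each array minus that gene's mean over the 8 arrays, red above and blue below, with genes ordered by place in the complex. The alpha genes are less strongly coloured in KO than in WT, with a median of -0.62 on WT TCDD replicate 1 and 0.73 on WT DMSO replicate 2.

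For 18 of the 40 genes the array had more than 1 probe set, which gives another reading of the same RNA. Of 30 further probe sets 15 had a mean at or above the median, and 12 of these had the sign of the one used and 3 the opposite sign; 0 of the 30 were called. For Psmd4 the probe set used gave 0.73, and the others gave 0.15 and 0.47. For Psmc4 they gave 0.51 and 0.30, and for Psme4 -0.54 and -0.26 with the third, a dim one, at -0.13.

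Some genes read differently by probe set. Psmc2 gave 0.25 with the probe set used, whose suffix marks probes that can match other transcripts, and -0.22 with the other. Psmd11, a lid subunit with 6 probe sets, gave 0.02 with the brightest and -0.86 with another (limma, BH adjusted p = 0.0742), in which KO averaged 7.13 ± 0.25 and WT 7.99 ± 0.44 (SD, n = 4 each). The second probe set of Psmb3 ranged from 6.44 to 8.58 over the WT arrays, against 10.02 to 10.59 for the one used. Psmd8, Psma3, Psmd14, Psmd1 and Psmc3 had 1 probe set each, so no other reading was at hand for the gene called.

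**Figure D5:**
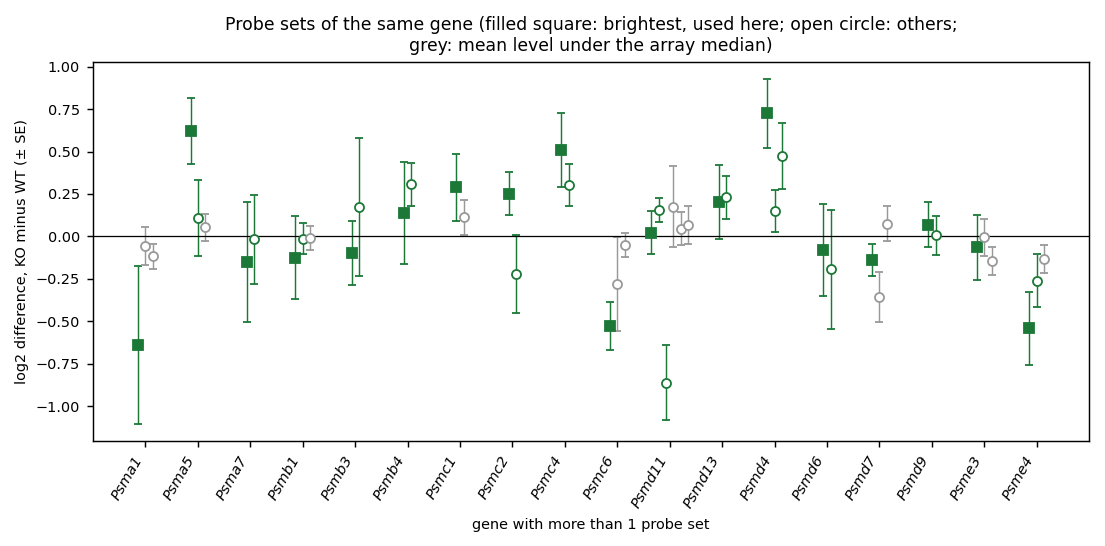
Log2 difference KO minus WT for each probe set of the 18 genes with more than 1, with bars for the standard error, filled squares for the probe set used, open circles for the others and grey for a mean under the array median. Psmd4 and Psmc4 read above 0 throughout, and one Psmd11 probe set stands at -0.86 while the brightest is at 0.02.

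Genes that assemble, feed or regulate the proteasome, or use its peptides, were listed by 61 symbols, some of them older names of the same gene, and 47 had a probe set of their own. Of these 2 rose and 1 fell in KO, against 3.24% of all genes and 5.05% of the bright genes called in either direction, and 17 lay above 0 and 30 below, with a median of -0.08. Akirin2, which brings assembled proteasomes into the nucleus, read 8.78 and 8.86 in KO TCDD and 8.92 and 8.61 in KO DMSO, against 9.33 and 9.62 in WT TCDD and 9.34 and 9.50 in WT DMSO. Its arrays were tight within each genotype and apart between them, and it fell by 0.66 on the log2 scale (SE 0.10; limma, BH adjusted p = 0.0201). The call ended without KO TCDD replicate 1 or 2, WT DMSO replicate 2 or WT TCDD replicate 2, with an adjusted p of at most 0.0672. Those fits called 0.541% to 0.597% of all genes. The Akirin2 call also ended in the model of 4 group means (limma, BH adjusted p = 0.0691). Averaging the readings of Akirin2 over its probe sets gave a smaller difference, -0.35, which passed (limma, BH adjusted p = 0.0248).

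Tap2, a subunit of the transporter that carries proteasome products into the endoplasmic reticulum, read 9.52 and 9.25 in KO TCDD and 9.41 and 8.95 in KO DMSO, against 8.09 and 8.50 in WT TCDD and 8.81 and 8.41 in WT DMSO. It rose by 0.83 (SE 0.17; limma, BH adjusted p = 0.0447), with all KO arrays above all WT arrays, and its partner Tap1 differed by 0.80 without passing (limma, BH adjusted p = 0.058). Nsfl1c, the p47 cofactor of the segregase p97, read 10.26 and 10.40 in KO TCDD and 10.32 and 9.89 in KO DMSO, against 9.20 and 9.35 in WT TCDD and 9.79 and 9.55 in WT DMSO, and rose by 0.75 (SE 0.15; limma, BH adjusted p = 0.0447). For both Tap2 and Nsfl1c the call held without KO DMSO replicate 2 or WT DMSO replicate 1. It ended without any of the other 6 arrays, with an adjusted p of at most 0.126 for Tap2 and 0.133 for Nsfl1c. Those 6 fits called 0.541% to 3.22% of all genes. The part of the myeloid markers in these genotype differences was not tested.

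By list, 1 of 6 assembly factors was called (Akirin2), 0 of 9 proteasome-associated proteins, 1 of 9 ubiquitin shuttles and p97 cofactors (Nsfl1c), 0 of 11 regulators of proteasome genes and 1 of 12 genes of peptide supply to MHC class I (Tap2). Among the regulators, Nfe2l1, the factor that raises proteasome genes when proteolysis falls short, differed by -0.20 (limma, BH adjusted p = 0.444). Each of the 6 ubiquitin and E1 genes listed lacked a probe set naming it alone.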

How the data were processed

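The authors deposited log2 expression values made with RMA; the submitters' processing notes name the affy package, with no version given in the sources used here. Per the labels, TRIzol extracts were amplified (Ambion MessageAmp) and hybridised by Affymetrix's standard procedure. Of 22690 probe sets, 64 Affymetrix controls were left out and 22626 tested; 20380 had 1 gene symbol, 691 several and 1555 none in the array annotation used here, and no gene was named from a probe set with several.

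Samples were grouped by title. KO was compared with WT over 4 against 4 arrays, as the series' design text pools treatments, and TCDD effects and their difference in a model of 4 group means, with limma 3.58.1 (lmFit, eBayes) in R 4.3.3, BH over all probe sets and a call at 0.05. The fits were tested on simulated data. The series text speaks of biological duplicates. Precision is limited by the number of arrays, which have no read depth. Members, lists and tests were chosen with earlier results of these data known.

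Described by array were the genes called, the 3 largest differences in each direction, the catalytic subunits, Psmd4, Psmd14 and the activators; for TCDD, the 2 genes with the smallest p in each comparison; of other pathway genes, those called. Exceptions are named. Replicate numbers were not taken to pair arrays. Alternatives were another normalization, filter, model, array set or threshold.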

Additional observations from a re-analysis of the deposited data

Results flagged for a closer look

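In 5 of the 80 combinations of a proteasome gene and a genotype, 1 of the 4 arrays stood apart from the other 3 beyond Dixon's limit, and chance gives about 1 in 20. KO DMSO replicate 2 was the array apart in Psmd6, a lid subunit, at 8.10 while the other KO arrays lay between 9.02 and 9.09, and in Psme3, the nuclear activator, at 7.60 while the others lay between 6.84 and 6.95. It was thus low in one gene and high in the other. In Psmb7, the trypsin-like catalytic subunit, KO TCDD replicate 1 read 6.86 while the other KO arrays lay between 7.04 and 7.07. Among WT arrays, Psmc4, an ATPase of the base, read 8.23 on WT TCDD replicate 2 while the others lay between 8.92 and 9.03, and Psmd13, a lid subunit, read 7.27 on WT TCDD replicate 1 while the others lay between 7.98 and 8.12. None of these 5 genes was called between genotypes.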

How the results depend on the processing

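The count of proteasome genes called between KO and WT was 1 and ranged from 0 to 12 over 22 alternatives. It was 7 with the quantile normalization repeated (5.13% of all genes called in that fit), 5 with array weights (8.13%) and at an adjusted p under 0.10 (8.82%), 4 with the actin covariate (9.13%), and 12 at an unadjusted p under 0.05 (22.2%). It was 2 with the replicate block (4.03%), with dim probe sets left out (7.89%) and with the mean of a gene's probe sets (4.21%), each time Psmd8 and Psma3. The differences of both genes were unchanged in these fits, at 0.95 and -1.24. The count was 0 with median centring (2.82%), in the model of 4 group means (0.807%) and without both WT arrays numbered 2 (0.137%). On DMSO arrays only and on TCDD arrays only it was also 0, where 0% of all genes were called. Leaving out 1 array at a time gave 0 to 2 genes. These were Psmd14 without KO DMSO replicate 1 (3.01% of all genes called) and Psmb6 without KO DMSO replicate 2 (1.86%). Without WT TCDD replicate 1 they were Psma3 and Psmd8 (3.22%), and without any other array there were 0 (0.541% to 2.17%). Psmd8 kept its sign in all 20 alternatives and lost its call in 12 (adjusted p 0.0178 to 0.685). The count of other pathway genes was 3 of 47 and became 1 with trend and robust settings (2.43% of all genes). It was 5 with array weights (8.13%) and at an adjusted p under 0.10 (8.82%). With the actin covariate it was 10 (9.13%), and at an unadjusted p under 0.05 it was 16 (22.2%). It was 0 in the 4-group model (0.807%), on either treatment alone (0%) and without both WT arrays numbered 2 (0.137%). With 1 array left out it was 0 to 3 (0.541% to 3.22%). The cause was not tested. The median difference ran from -0.13 to 0.13. Deviations of arrays with the same replicate number correlated at 0.63 between the WT groups. In the other pairs of groups the correlation was -0.29 to 0.22. The replicate block left the pathway count at 3 and gave the 2 proteasome genes named above. The TCDD counts were 0 in all 16 alternatives.

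Of the 40 genes 20 turned sign in at least 1 alternative, none of them the gene called, and 9 did so without both WT arrays numbered 2, where 26 lay above 0 and 14 below. Of the 14 genes whose values were followed by alternative, 4 turned. Psma1 turned without both WT arrays numbered 2 (0.2175). Psmb5 turned on DMSO arrays only (-0.095) and without KO TCDD replicate 2 (-0.01), WT DMSO replicate 1 (-0.0017) or WT TCDD replicate 1 (-0.0617), with 0.1117 as its highest value with 1 array left out. Psme1 turned with array weights (0.0783), without both WT arrays numbered 2 (0.1375) and without KO DMSO replicate 2 (0.0592), with -0.3042 as its lowest. Psme3 turned on DMSO arrays only (0.16), without both WT arrays numbered 2 (0.1275) and without KO DMSO replicate 1 (0.0075), KO TCDD replicate 2 (0.0075) or WT TCDD replicate 2 (0.0308), with -0.2458 as its lowest.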
